A study of Mus musculus with 12 samples.

Results

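Interferon-stimulated genes are the genes that a cell switches on when it senses interferon. A set of 34 of them was read by gene symbol from the 54658 gene names of a left atrial (LA) RNA-sequencing count table, and all 34 were found there. The libraries came from whole mouse LA. The 6 iNICD mice carried *αMHC-rtTA* and *tetO_NICD*, so that doxycycline induced the intracellular domain of Notch1 (NICD) in cardiomyocytes, the cells in which the αMHC promoter is active. The 6 littermate controls carried *αMHC-rtTA* alone. Both groups were 2 to 3 months old, were kept on a mixed genetic background and received doxycycline chow for 3 weeks without washout, so the controls share the transactivator and the drug. The controls were 4 females and 2 males and the iNICD mice 3 females and 3 males, and each LA was its own library.

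Type I interferons bind the receptor made of Ifnar1 and Ifnar2, and type II interferon (Ifng) binds Ifngr1 and Ifngr2. Janus kinases then phosphorylate STAT proteins. A complex that holds Stat2 and Irf9 binds the interferon-stimulated response element (ISRE), and the gamma-activated sequence (GAS) is the element of the type II response. The genes switched on this way encode RNA sensors, nucleases, GTPases and ubiquitin-like modifiers that restrict viruses, and also the transcription factors that sustain the response. Most tissues keep a low level of these genes without infection. The 34 genes were grouped by role into interferon transcription factors, IFIT proteins, ISG15 conjugation with ADP-ribosylation and ubiquitin ligases, the OAS family, RNA sensors with PKR, Mx and guanylate-binding GTPases, and other antiviral effectors.

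The ISRE is the element through which type I interferon acts on its target genes, so the promoters were searched for it and are shown first. RefSeq promoter windows on GRCm38.p6, 250 bases before to 50 bases after an annotated start, were at hand for 26 of the 34 genes. *Parp14*, *Parp9*, *Mx1*, *Mx2*, *Dhx58*, *Rtp4*, *Usp18* and *Oas2* had no entry. The letters GAAA, 2 bases of any kind and GAAA again, or TTTC, 2 bases and TTTC for the same element on the other strand, occurred in 14 of the 32 windows of these genes, 43.8%, against 3.44% of all 32851 windows. Of the 26 genes, 11 held a match that lay wholly before the start. The letters TTCNNNGAA of the GAS, which read the same on both strands, occurred in 8 of the 32 windows, 25%, against 8.30% of all windows. A match describes the letters and not a bound site. The 8 stretches below represent the main families, written 5′ to 3′ along the gene, with capitals marking the bases of ISRE matches.
Ifit1: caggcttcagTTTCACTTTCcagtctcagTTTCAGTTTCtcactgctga
Ifit3: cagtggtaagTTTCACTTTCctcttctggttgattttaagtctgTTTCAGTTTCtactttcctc
Isg15: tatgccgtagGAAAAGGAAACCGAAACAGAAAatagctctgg
Oas1a: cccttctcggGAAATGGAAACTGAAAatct
Stat2: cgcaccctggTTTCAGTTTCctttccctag
Gbp2: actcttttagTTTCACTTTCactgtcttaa
Gbp3: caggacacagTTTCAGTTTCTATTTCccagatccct
Gbp7: gtgtgtgcagTTTCAGTTTCagttctccat

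These stretches lie on GRCm38.p6. *Ifit1* is at chr19:34640775-34640823 and *Ifit3* at chr19:34583363-34583426, both on the plus strand. *Isg15* is at chr4:156200865-156200906 and *Oas1a* at chr5:120907526-120907555, both on the minus strand. *Stat2* is at chr10:128270266-128270295 on the plus strand. *Gbp2* at chr3:142620594-142620623, *Gbp3* at chr3:142559989-142560024 and *Gbp7* at chr3:142530273-142530302 are neighbours on the plus strand. In *Isg15* 3 overlapping matches ran from base -78 to base -57, counted from the start. In *Ifit1* and *Ifit3* the 2 matches of each gene were apart from each other, and in *Gbp3* and *Oas1a* 2 matches overlapped. *Bst2* was the gene in which a GAS match overlapped an ISRE match.

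**Figure D1:**
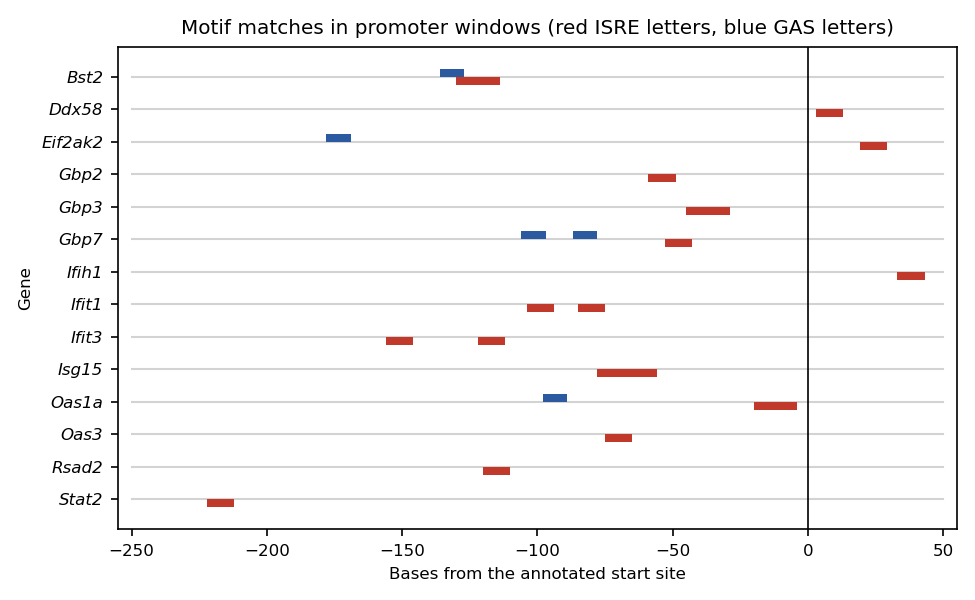
Positions of ISRE letters (red) and GAS letters (blue) in the promoter windows of the 14 genes with an ISRE match, in bases from the annotated start (x axis), 1 line per gene. In 11 genes an ISRE match lies before the start, and in *Ddx58*, *Eif2ak2* and *Ifih1* it lies after it.

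Each library held between 21432632 and 27182038 counts on genes. Levels are given as normalized CPM, counts scaled to the adjusted library total. The 13541 names above 1 CPM in 6 or more libraries entered the tests. Of the 34 genes 33 were tested, and *Oas3*, an enzyme that makes the 2′-5′ oligoadenylates that activate RNase L, did not pass, with 8 to 40 counts per library. *Notch1*, whose counts include those of the transgene, lay between 108 and 131 normalized CPM in controls and between 2975 and 4077 in iNICD mice, so the labels and the transgene went together. The atrial cardiomyocyte markers *Myl7*, *Myl4*, *Sln*, *Nppa* and *Bmp10* summed to 34241 to 44028 normalized CPM in controls and 9269 to 16601 in iNICD mice, with 4 of the 5 lower in iNICD mice. Of the 4 ventricular markers, *Irx4* was at 0 in all libraries and *Myl2* had 5 to 73 counts per library. The 2 that were tested, *Hey2* and *Myl3*, summed to 2.90 to 5.18 normalized CPM in controls and 3.13 to 5.16 in iNICD mice. Control replicate 5 stood apart: it gave the lowest value for 29.0% of all tested genes and the highest for 26.6%. In a bulk sample, fewer cells of a type and less RNA per cell cannot be told apart.

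All 34 genes gave counts in the left atrium of these mice. Compared per kilobase of the deposited gene length, the highest level was that of *Bst2*, which tethers budding virions to the cell, at 30.0 CPM per kb over the 12 libraries. *Gbp2*, an interferon-induced GTPase, followed at 19.7 CPM per kb, then *Ifi35* at 12.4 and *Isg15*, the ubiquitin-like modifier, at 8.63. *Oas3* was lowest, at 0.126 CPM per kb, below *Mx1* at 0.562. The receptors were also present, with 6 of 6 receptor genes tested. The ligands were close to absent: 17 of the 21 interferon genes had a count of 0 in every library, and the other 4 had 18 counts between them, at most 7 per library. The largest single count of a ligand was 6, for *Ifng*. A count of 0 at this depth says that a transcript was not detectable here.

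None of the 33 genes passed between iNICD and control LA in the quasi-likelihood test of edgeR, with p-values adjusted over all 13541 genes. Over all tested genes, 377 were higher in iNICD mice, 2.78%, and 181 were lower, 1.34%. At an unadjusted p under 0.05, 3 of the 33 genes were counted (*Ifih1*, *Irf7* and *Isg15*), against 17.4% of all genes. DESeq2 called 1 of the 33 higher, *Ifih1*, where it called 4.55% of all genes higher. The same gene was called by edgeR's exact test (3.63% of all genes higher), with sex as a covariate (3.18%) and in females alone (1.95%). When Control replicates 2 and 5 were both left out, 4 of the 33 passed, *Ifih1*, *Ifit2*, *Isg15* and *Mx2*, against 4.17% of all genes. The fitted change was above 0 for 31 of the 33, with a median log2 fold change of 0.30, whereas it was above 0 for 6590 of the 13541 tested genes, with a median near 0 at -0.006. The exceptions were *Isg20* at -0.17 and *Oasl1* at -0.05. The libraries of the groups overlapped for each of the 33 genes, and 3.83% of all tested genes had no overlap.

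Among the interferon transcription factors, *Irf7*, the factor that amplifies type I interferon production, lay between 5.57 and 18.5 normalized CPM in controls, with a median of 10.02. In iNICD mice it lay between 10.1 and 24.6, with a median of 16.7. All 6 iNICD libraries were above the control median, and Control replicate 2 was above 3 of them. The log2 fold change was 0.67 (SE 0.28, adjusted p = 0.227 by edgeR). *Stat2*, the STAT protein of the ISRE-binding complex and the factor with the highest level in counts, ran from 26.9 to 51.7 in controls (median 39.5) and from 28.9 to 59.9 in iNICD mice (median 37.4), with a log2 fold change of 0.05 (SE 0.18). *Irf9*, its partner, had 0.23 and *Irf1*, a factor that also acts downstream of interferon gamma, had 0.16, and without iNICD replicate 3 these were 0.11 and 0.038. The groups overlapped almost fully in *Stat2*.

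The IFIT proteins bind foreign RNA and block its translation. *Ifit2* lay between 6.22 and 30.4 normalized CPM in controls, with a median of 8.24, and between 11.9 and 18.8 in iNICD mice, with a median of 13.6. The 6 iNICD libraries were above 5 of the 6 controls, and Control replicate 2, at 30.4, was above all of them. Its log2 fold change was 0.30 (SE 0.35, adjusted p = 0.696 by edgeR), and it became 0.84 (adjusted p = 0.0159) without Control replicate 2 and 0.17 (adjusted p = 0.851) without Control replicate 5. *Ifit1* had a log2 fold change of 0.37 and *Ifit3* of 0.54. Without Control replicate 2 these were 0.88 and 1.07, and without Control replicate 5 they were 0.20 and 0.36.

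*Isg15* is the modifier that is joined to proteins during the response, and *Usp18* is the protease that removes it. *Isg15* ran from 3.18 to 10.7 normalized CPM in controls, with a median of 3.93, and from 5.17 to 13.4 in iNICD mice, with a median of 7.33. Again the 6 iNICD libraries lay above 5 of the 6 controls. The log2 fold change was 0.72 (SE 0.33, adjusted p = 0.279 by edgeR), and 1.10 (adjusted p = 0.0281) without Control replicate 2. It was 0.52 (adjusted p = 0.472 by edgeR) without iNICD replicate 3 and 0.62 (adjusted p = 0.359) without Control replicate 5. *Trim25*, a ubiquitin ligase that activates RIG-I and the gene of this group with the most counts, ran from 34.9 to 54.3 in controls (median 46.4) and from 40.2 to 54.4 in iNICD mice (median 47.1), with a log2 fold change of 0.05 (SE 0.11). *Usp18*, *Parp9*, *Parp14* and *Dtx3l* lay between 0.23 and 0.38, and *Usp18* was 0.94 without Control replicate 2 and 0.23 without Control replicate 5. *Parp14* was 0.45 without Control replicate 2 and 0.16 without iNICD replicate 3, *Dtx3l* was 0.12 without iNICD replicate 3, and *Parp9* was 0.18 without Control replicate 5.

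The OAS genes encode the synthetases that activate RNase L and their relatives. *Oasl2* ran from 17.7 to 43.5 normalized CPM in controls, with a median of 30.4, and from 21.2 to 46.9 in iNICD mice, with a median of 30.9. The groups covered nearly the same range, and the log2 fold change was 0.14 (SE 0.24, adjusted p = 0.803 by edgeR), or 0.017 without iNICD replicate 3 and 0.27 without Control replicate 2. *Oas1a* had 0.60, *Oas2* 0.38 and *Oasl1* -0.05, the last of which was 0.80 without Control replicate 2. *Oas1a* moved to 0.92 without that library, and without iNICD replicate 3 *Oas1a* was 0.38 and *Oas2* 0.23. *Oas3*, which was not tested by edgeR, lay between 0.370 and 1.14 normalized CPM in controls and between 0.533 and 1.72 in iNICD mice (exact permutation of the libraries, two-sided, p = 0.162, n = 6 each).

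*Ifih1*, which encodes the RNA sensor MDA5, was the gene closest to the threshold. It lay between 11.3 and 24.2 normalized CPM in controls, with a median of 20.9, and between 22.6 and 33.6 in iNICD mice, with a median of 30.5. Only Control replicate 2 reached into the iNICD range, where it was above 2 of the 6 libraries. The log2 fold change was 0.54 (SE 0.16, adjusted p = 0.0922 by edgeR, exact permutation p = 0.00866 with n = 6 per group and 0.00216 the smallest possible). With sex as a covariate the adjusted p was 0.0224, and with DESeq2 it was 0.0274. *Ddx58*, which encodes RIG-I, ran from 18.6 to 35.1 in controls (median 24.1) and from 23.7 to 40.8 in iNICD mice (median 29.3), with a log2 fold change of 0.30 (SE 0.16, adjusted p = 0.364). *Eif2ak2*, which encodes the RNA-activated kinase PKR, ran from 14.9 to 23.5 in controls (median 20.5) and from 15.7 to 30.3 in iNICD mice (median 24.6), with 0.32 (SE 0.16, adjusted p = 0.316). *Dhx58*, the third RIG-I-like receptor, had 0.10.

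Of the GTPases, *Gbp2* lay between 21.5 and 56.9 normalized CPM in controls, with a median of 51.6, and between 30.6 and 102.6 in iNICD mice, with a median of 44.6. The iNICD median was the lower one although the highest library, iNICD replicate 3, was an iNICD library. The log2 fold change was 0.28 (SE 0.30, adjusted p = 0.681 by edgeR), and without iNICD replicate 3 it turned to -0.0075. Including sex as a covariate gave 0.43 (adjusted p = 0.183 by edgeR). *Gbp3* and *Gbp7* had 0.51 and 0.63, which fell to 0.20 and 0.30 without iNICD replicate 3. *Gbp7* had 0.79 (adjusted p = 0.0511 by edgeR) with sex as a covariate. The dynamin-like *Mx1* and *Mx2* had 0.11 and 0.57, which were 1.33 and 1.27 without Control replicate 2 and -0.10 and 0.34 without Control replicate 5. With sex as a covariate *Mx2* had 0.93. *Mx2* is classed as a polymorphic pseudogene in the annotation, and the Mx genes were thinly counted, with 9 to 212 and 7 to 199 counts per library.

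Among the other effectors, *Xaf1*, an interferon-induced pro-apoptotic protein, ran from 5.52 to 14.0 normalized CPM in controls (median 9.31) and from 8.97 to 15.7 in iNICD mice (median 12.4). Its log2 fold change was 0.43 (SE 0.22, adjusted p = 0.334 by edgeR). *Bst2* ran from 21.7 to 31.3 in controls (median 26.5) and from 20.5 to 39.2 in iNICD mice (median 26.6), with 0.07 (SE 0.17). The control range of *Bst2* lay within the wider iNICD range. *Ifi44* had the highest fitted value of the 33 genes over all 12 libraries, 0.89, with an SE of 0.50, and it was 0.46 without iNICD replicate 2. Without Control replicate 2 it was 1.21 and the values of *Mx1*, *Mx2* and *Rsad2* were above it, so this rank rests on single libraries. *Rsad2*, the radical SAM enzyme viperin, had 0.25, but 1.25 without Control replicate 2 and 0.037 without Control replicate 5. *Rtp4* had 0.42, *Ifi35* 0.20 and the exonuclease *Isg20* -0.17. Leaving out iNICD replicate 3 moved *Ifi35* to 0.11 and *Isg20* to -0.31, and without iNICD replicate 2 *Isg20* was -0.088.

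**Figure D2:**
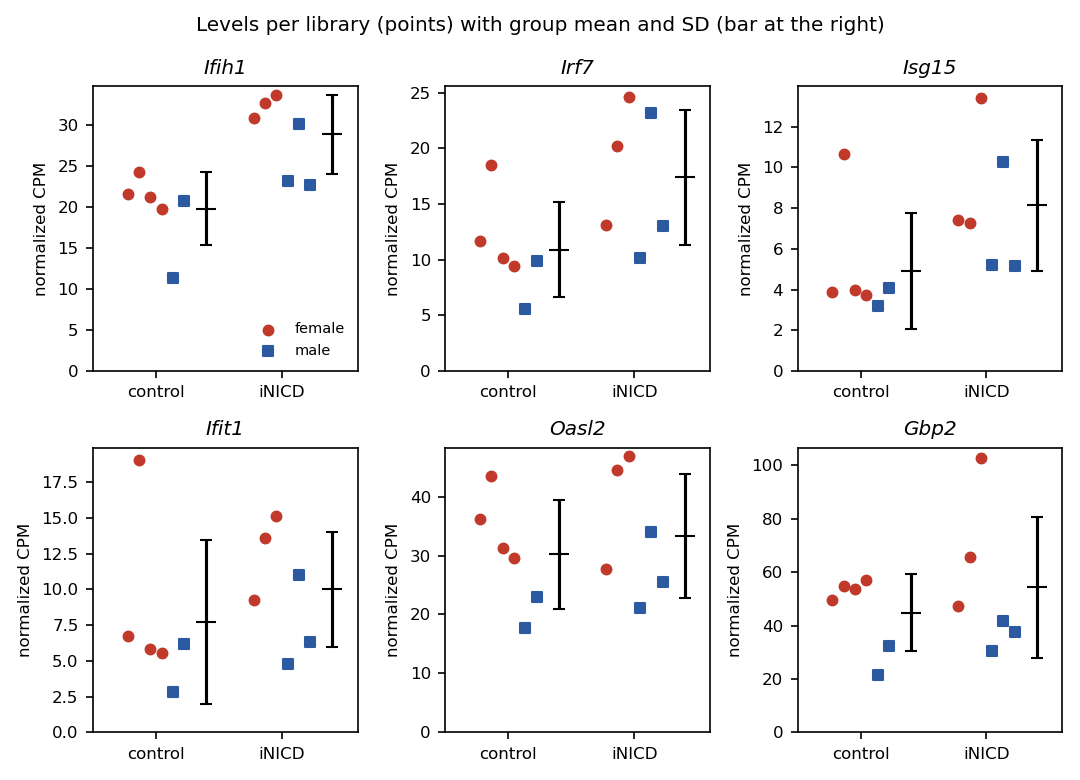
Normalized CPM (y axis) in each control and iNICD library for 6 interferon-stimulated genes, with females as red circles and males as blue squares, and the group mean and SD (n = 6) at the right of each group. Control and iNICD points overlap in every panel, and in *Gbp2* the lowest female, at 47.4, lies above the highest male, at 41.8.

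The genes around the response were read from the same comparison. Of 87 tested genes on the receptor, JAK-STAT, sensor and further-target lists, 2 were higher in iNICD mice and none lower, against 2.78% and 1.34% of all genes, so the higher share was near the background. DESeq2 called 4 higher and 1 lower, against 4.55% and 3.29% of all genes. *Adar*, which edits double-stranded RNA, ran from 46.3 to 68.8 normalized CPM in controls (median 49.9) and from 64.1 to 80.8 in iNICD mice (median 72.2), with a log2 fold change of 0.42 (SE 0.10, adjusted p = 0.0382 by edgeR). It passed in 3 of the 12 fits that left out 1 library, with log2 fold changes of 0.37 to 0.49. *Tap2*, a peptide transporter of antigen presentation, ran from 41.6 to 63.4 in controls (median 58.1) and from 67.4 to 90.7 in iNICD mice (median 77.6), with 0.47 (SE 0.10, adjusted p = 0.0208), and its groups did not overlap. *Tap2* did not pass without iNICD replicate 1 (adjusted p = 0.0549) or iNICD replicate 3 (0.0508).

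Neither the 6 receptor genes nor the 10 JAK-STAT genes held a call. The receptor gene with the lowest adjusted p was *Il10rb*, the shared chain of the interferon lambda receptor, with a log2 fold change of 0.24 (SE 0.07, adjusted p = 0.0978 by edgeR). In the JAK-STAT list it was *Socs3*, an inhibitor of the pathway, with -1.26 (SE 0.53, adjusted p = 0.243). The controls of *Socs3* ran from 6.41 to 73.9 normalized CPM and the iNICD mice from 6.82 to 10.8. Of the 17 sensor and adaptor genes *Adar* was the one that passed, and of 54 further interferon-responsive genes *Tap2* was, while 43 of these 54 had a fitted change above 0 (median 0.25).

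The levels of the interferon-stimulated genes were spread widely over the mice of each group. The mean log2 deviation of the 33 genes from their own means ran from -0.89 in Control replicate 5 to 0.79 in iNICD replicate 3. Control replicate 2 stood at 0.68 and iNICD replicate 2 at 0.57, and the other 8 libraries lay between -0.36 and 0.22. For 18 of the 33 genes the highest value came from iNICD replicate 3, against 4.89% of all tested genes. It came from Control replicate 2 for 10, against 5.66%, and from iNICD replicate 2 for 5, against 8.49%. The lowest value came from Control replicate 5 for 28 genes, against 29.0% of all tested genes. Total counts and the mean of the 33 genes had a Pearson r of 0.12 and a Spearman rho of 0.02 (n = 12, group means removed, a description with no test). The TMM scaling factor had r = 0.61 and rho = 0.57, which became r = 0.22 without the 2 farthest libraries. Control replicate 5 had the lowest factor, 0.863. Its part in the result was not tested.

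Control replicate 2 was above the median of the other controls for all 33 genes. The median ratio was 1.56, and 11 of the 33 genes were at least 2-fold higher there, against 1.94% of all tested genes. The highest ratio was 10.6, for *Mx1*. In iNICD replicate 3 the median ratio to the other iNICD libraries was 1.63, again with all 33 genes above 1 and with 6 at least 2-fold higher, against 1.49% of all tested genes. In Control replicate 5 the median ratio was 0.62, and 2 of the 33 genes were above 1. The level of *Notch1* and the mean of the 33 genes had r = -0.09 and rho = -0.09 over the 6 iNICD libraries, and r = 0.47 without the 2 farthest, so no relation could be read from them.

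**Figure D3:**
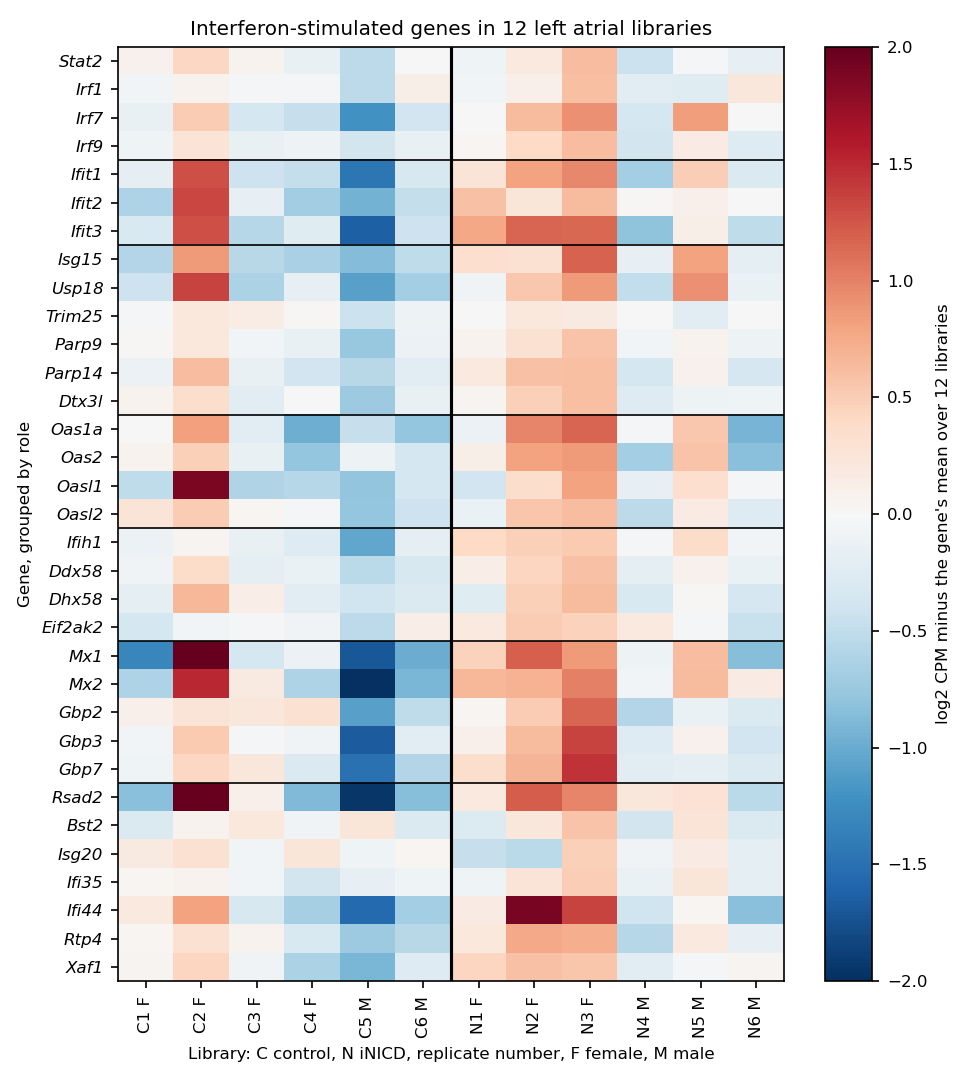
Heat map of the 33 tested interferon-stimulated genes (rows, grouped by role) in the 12 libraries (columns; C control, N iNICD, F female, M male), coloured by log2 CPM minus the mean of the gene. Control replicate 2 and iNICD replicates 2 and 3 are red in most rows and Control replicate 5 is blue in most rows, with exceptions such as *Bst2* and *Isg20*.

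The genes moved together from mouse to mouse. After each group mean was subtracted, the 528 pairs of the 33 genes had a median Pearson r of 0.75 over the 12 libraries, and 83.9% of the pairs were above 0.5. Over all pairs of the 13541 tested genes the median was near 0, and 14.6% were above 0.5. The median was 0.80 within the 6 controls and 0.81 within the 6 iNICD mice. It was 0.72 over the 10 libraries without Control replicates 2 and 5, and 0.65 when the sex means were subtracted as well. The points share their libraries and scaling, so these are descriptions.

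By role, the median r within a group was 0.84 for the transcription factors, 0.83 for the IFIT proteins, 0.82 for the ISG15 and ubiquitin group, 0.82 for the GTPases, 0.72 for the OAS family, 0.67 for the sensors with PKR and 0.56 for the other effectors. *Ddx58* followed the mean of the other 32 genes most closely, with r = 0.98 (rho = 0.92) over the 12 libraries. By rho *Oasl2* was the closest (0.98), and without Control replicates 2 and 5 it was *Irf9* by r (0.97, against 0.96 for *Ddx58*). Over the 12 libraries *Parp14*, *Ifit1* and *Stat2* each had r = 0.96. *Isg20* followed it least, with r = 0.38 (rho = 0.31), below *Bst2* at 0.47 and *Eif2ak2* at 0.59. For *Bst2* the value rose to 0.84 without Control replicates 2 and 5, and for *Isg20* it was 0.25.

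**Figure D4:**
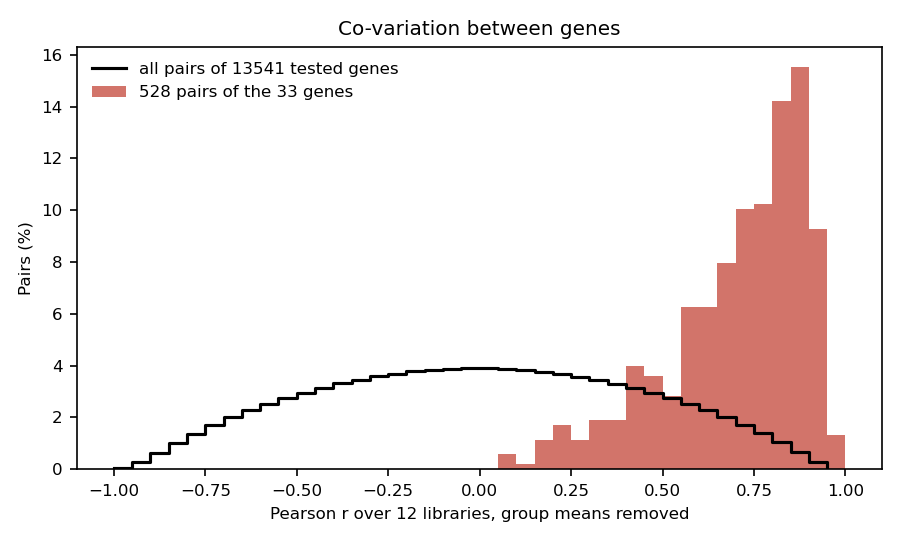
Distribution of the Pearson r between pairs of genes over 12 libraries after removal of group means (x axis), as a percentage of pairs (y axis), for 528 pairs of the interferon-stimulated genes (red bars) and all pairs of tested genes (black line). The red bars have their median at 0.75 and the black line at about 0.

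Of the 13508 other tested genes, 21 had an r above 0.9 with the mean of the 33 genes, and 13 of these stood on the lists of interferon pathway genes. Above 0.8 there were 99 genes, 35 of them on the lists. The 10 most alike over the 12 libraries were *Oas1b* (r = 0.96), *Zc3hav1*, *Parp12*, *Parp10*, *Irgm1*, *Rnf213*, *Myo1f*, *Phf11d*, *Ifi47* and *Psmb8* (r = 0.93). Of these 10, 7 stood on the lists, and *Zc3hav1*, *Rnf213* and *Myo1f* did not. Without Control replicates 2 and 5 the r of these 10 genes lay between 0.88 for *Myo1f* and 0.95 for *Irgm1*.

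Markers of immune cells and of other cells of the atrium were set beside the 33 genes. The 10 macrophage genes summed to between 486 and 659 normalized CPM in controls and between 481 and 722 in iNICD mice. None of the 10 passed between the groups by edgeR or had an unadjusted p under 0.05. Their mean and that of the 33 genes had r = 0.49 and rho = 0.55 over the 12 libraries, and r = 0.38 without the 2 farthest. Of the 11 marker lists with a tested gene, that of the atrial cardiomyocyte had the highest r over the 12 libraries, 0.63 (rho = 0.69). The neutrophil list, with 1 tested gene, had r = 0.53 (rho = 0.50), and the mesothelial list r = 0.52 (rho = 0.69). This order did not hold when the 2 libraries farthest from the median of each list were left out: the atrial list and that of smooth muscle, which had r = 0.01 (rho = 0.02) over all 12, were both at r = 0.58, followed by the neutrophil list at 0.55, the endothelial list at 0.51 (r = 0.20 over all 12) and the mesothelial list at 0.47. The mean log2 deviation of the macrophage genes was 0.36 in iNICD replicates 3 and 5. It was 0.20 in Control replicate 2 and 0.07 in iNICD replicate 2. Control replicate 5, lowest for most of the 33 genes, was also above average for the macrophage genes, at 0.17. Lymphocyte, neutrophil and dendritic markers were near the limit of counting: 2 of 8 T and NK cell genes, 1 of 5 B cell genes, 1 of 5 neutrophil genes and 0 of 4 dendritic cell genes passed the filter. Their part in the result was not tested.

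Females and males were compared with genotype in the model. One gene of the 33, *Gbp2*, was higher in females by edgeR, and none was lower, where 23 of all tested genes were higher, 0.17%, and 16 lower, 0.118%. The fitted difference was above 0 for all 33 genes, with a median log2 fold change of 0.55, whereas it was above 0 for 6589 of the 13541 tested genes with a median of -0.006. An unadjusted p under 0.05 was found for 21 of the 33 genes, against 13.9% of all genes. The female mean was above the male mean for 32 of 33 genes in controls and for 32 of 33 in iNICD mice. Control replicate 5 is a male, and Control replicate 2 and iNICD replicates 2 and 3 are females.

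*Gbp2* lay between 47.4 and 102.6 normalized CPM in the 7 females, with a median of 54.8, and between 21.5 and 41.8 in the 5 males, with a median of 32.4. No male reached the lowest female, and 1.38% of all tested genes had such a gap. The log2 fold change was 0.98 (SE 0.18, adjusted p = 0.0461 by edgeR, exact permutation p = 0.00126 with n = 7 and 5, the smallest possible). The size held between 0.82 and 1.09 when each library was left out, but it passed in 2 of these 12 fits, and not without Control replicate 5 (0.89, adjusted p = 0.0742) or iNICD replicate 3 (0.82, adjusted p = 0.0657). *Gbp7* (1.10, adjusted p = 0.0582) and *Rtp4* (0.71, adjusted p = 0.0947) came next. DESeq2 called 11 of the 33 genes higher in females, where it called 1.61% of all genes higher. With Control replicates 2 and 5 both left out, edgeR called none of the 33, against 0.127% of all genes.

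The highest fitted differences between the sexes were those of *Ifi44* (log2 fold change 1.45, SE 0.35), *Mx1* (1.43, SE 0.64), *Rsad2* (1.32, SE 0.56) and *Ifit3* (1.30, SE 0.36), none of which passed by edgeR. Without Control replicate 2, *Mx1* was 0.88 and *Rsad2* 0.84. *Isg20* (0.06), *Ifi35* (0.16) and *Bst2* (0.17) were the lowest over the 12 libraries. Without iNICD replicate 3 *Isg20* was -0.12, *Ifi35* 0.082 and *Bst2* 0.048, and without Control replicate 5 *Bst2* was 0.31. A difference between the sexes in the effect of NICD was called for none of the 33 genes by edgeR's interaction test, with 0 unadjusted p under 0.05 against 3.7% of all genes. The test made 0 calls over all tested genes, but without Control replicate 6, which leaves 1 male control, it called 880 genes higher and 831 lower, none of them among the 33. DESeq2 also called none of the 33, where it called 0 genes higher and 1 lower of all 13530 tested.

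**Figure D5:**
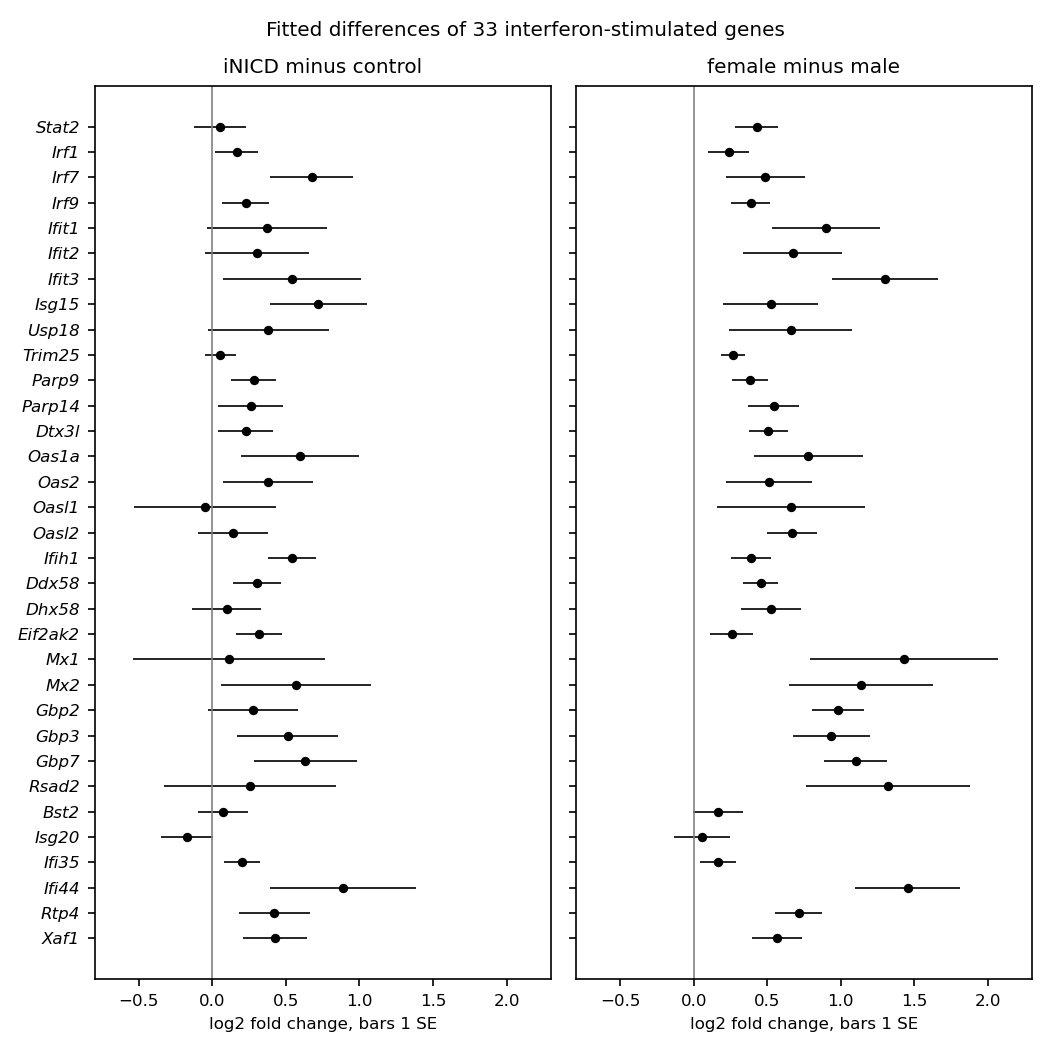
Fitted log2 fold changes with 1 SE (x axes) of the 33 genes (y axis), at the left for iNICD minus control and at the right for female minus male with genotype in the model. All points of the right panel are above 0 (median 0.55), and 31 of the 33 are in the left panel (median 0.30).

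Some counts are uncertain by sequence. *Ifit3*, *Oas1a*, *Oasl1*, *Oasl2*, the Mx genes and the guanylate-binding genes have close relatives whose reads a count of unique alignments can drop or split. On GRCm38, 4 of the 34 genes share exon bases with a gene on the same strand, *Irf9* with *Rnf31* among them, and 10 with a gene on the opposite strand, among them *Parp9* and *Dtx3l* with each other. The libraries were stranded, but whether counting used strand is not given in the sources used here.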

How the data were processed

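Total RNA from 12 LA, depleted of ribosomal RNA, was sequenced by the authors as stranded single-end reads. The authors deposited read counts for each gene name, not normalized, with a gene length in bases, another unit, in the deposited table. The sources describe STAR with featureCounts and TopHat2 with HTSeq, and the deposited table does not name its own route. The submitters' processing notes name cutadapt, STAR 2.4.2a, Subread, featureCounts and mm10, among them the tools of the STAR route. The length equalled the exon union of GENCODE M21 for 53272 of 54106 shared names and for all 34 genes.

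Groups, replicate numbers and sex came from the sample labels. The members and lists were chosen with earlier results of these data known. Counts were scaled by TMM in edgeR 4.0.16 (R 4.3.3), and genes above 1 CPM in at least 6 libraries were compared by the quasi-likelihood test, two-sided, at a Benjamini-Hochberg adjusted p under 0.05. SEs were derived from the F statistic. Correlations used log2 CPM with a prior count of 2. Single values were compared by exact permutation. The test was tested on simulated data. Alternatives were DESeq2 1.42.0, edgeR's exact test, other normalizations and filters, sex as a covariate, replicate blocks and leaving out libraries. Fits within a sex or group and without Control replicates 2 and 5 were added after seeing the data. Totals were 21432632 to 27182038 counts, and p-values cover the spread between mice. No 2 libraries of a group were copies, the lowest chi-square per gene being 16.7.

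Full values are given for genes past the threshold, the 6 with the lowest adjusted p for genotype and the gene with the highest mean CPM in each role group; of the pathway lists, for up to 5 that passed or the one with the lowest adjusted p; and for the 10 other genes most alike. Other genes are named for the size of a value, after it was seen. Some pathway genes are not reported here.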

Additional observations from a re-analysis of the deposited data

Results flagged for a closer look

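Dixon's ratio, at a level that chance exceeds in about 1 in 20 groups, was applied to the 66 groups of 6 libraries formed by the 33 tested genes. A single library lay far from the other 5 in 12 of them, where chance gives 3.3, and all 12 were in the control group. Since the genes co-vary, the 12 are not independent of each other.

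Control replicate 2 was the distant library in 10 of the 12. It held 19.1 normalized CPM of *Ifit1* (the other controls lay between 2.81 and 6.75), 30.4 of *Ifit2* (6.22 to 10.7), 14.4 of *Ifit3* (1.83 to 4.90) and 10.7 of *Isg15* (3.18 to 4.07). It also held 10.2 of *Usp18* (1.83 to 3.52), 45.6 of *Parp14* (20.2 to 27.4) and 6.42 of *Oasl1* (0.936 to 1.30). *Mx1* stood at 7.82 (0.421 to 1.42), *Mx2* at 7.34 (0.328 to 2.85) and *Rsad2* at 24.1 (1.45 to 6.25).

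Control replicate 5 was the distant library in the other 2, on the low side. It held 21.5 normalized CPM of *Irf1*, where the other controls lay between 29.6 and 33.4, and 11.3 of *Ifih1*, where they lay between 19.7 and 24.2.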

How the results depend on the processing

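None of the interferon-stimulated genes passed lower in iNICD mice in any fit. Higher calls were 1 (*Ifih1*) with DESeq2, edgeR's exact test, sex as a covariate, the replicate block by description numbers and in females alone, and 4 (*Ifit2*, *Isg15*, *Ifih1*, *Mx2*) without both Control replicate 2 and Control replicate 5. Leaving out 1 library gave 0 to 2 (1.87% to 3.6% of all genes; 2.1% in the description block). Of the pathway genes, 4 were higher with DESeq2, 5 with sex as a covariate, 1 with upper quartile scaling (2.51% of all genes) or no filter (1.18%), 0 in males alone (0.0591%) and 4 without both controls; 1 was lower with DESeq2 (3.29% of all genes lower), the exact test (2.06%), upper quartile scaling (1.53%) or without both controls (2.98%). Leaving out 1 library gave 0 to 4 higher (1.87% to 3.6% of all genes) and 0 to 1 lower (0.67% to 2.3%). Higher in females were 11 with DESeq2, 2 with no filter (0.134% of all genes), 0 in controls alone, where no gene at all was called, in iNICD mice alone (0.0148%) and without both controls, and 0 to 2 when 1 library was left out (0.0669% to 0.556% of all genes). The median r was 0.65 with sex means removed and 0.71 to 0.78 without 1 library.

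The fitted log2 fold change turned for *Oasl1* (0.12 with sex as a covariate, 0.31 in either replicate block, 0.63 in males alone, 0.75 without both controls) and *Bst2* (-0.12 in males alone), and between the sexes for *Bst2* (-0.019 in controls alone) and *Isg20* (-0.061 in iNICD mice alone, -0.012 without both controls). With 1 library left out it crossed 0 for *Oasl1* (-0.22 to 0.80), *Mx1* (-0.10 to 1.33), *Dhx58* (-0.044 to 0.28), *Stat2* (-0.094 to 0.15), *Bst2* (-0.054 to 0.14), *Trim25* (-0.017 to 0.10), *Gbp2* (-0.0075 to 0.40) and, between the sexes, *Isg20* (-0.12 to 0.16). The cause was not tested.

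The replicate numbers were not used as pairs, since no label ties a number to a litter or day and same-numbered residuals had an r above 0.1 in 4 of 6 pairs and not in all (-0.15 to 0.37 by titles, -0.11 to 0.37 by descriptions). With the block by title numbers 0 of the 33 genes passed, against 2.45% of all genes higher and 1% lower. Low counts limit *Oas3*, *Mx1* and *Mx2*, and also *Oas1a* (16 to 84 per library) and *Oasl1* (20 to 174).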

Other observations

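The 54 further interferon-responsive genes were also compared between the sexes. Their fitted female minus male difference was above 0 for 52 of 54, with a median log2 fold change of 0.42, and 36 of 54 had an unadjusted p under 0.05, against 13.9% of all tested genes. *Gbp6*, another guanylate-binding GTPase, was the 1 that passed, where 0.17% of all tested genes were higher in females, with a log2 fold change of 2.14 (SE 0.38, adjusted p = 0.0431 by edgeR). It lay between 1.49 and 10.9 normalized CPM in females and between 0.515 and 2.05 in males, so the sexes overlapped. *Cxcl10*, a chemokine that interferon gamma induces, did not pass the filter and had 1 to 176 counts per library. Its highest level was in Control replicate 2, at 6.49 normalized CPM, and its lowest in Control replicate 5.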
